A study of Mus musculus with 8 samples.

Results

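The promoters of *Ascl2*, *Cd81*, *Tssc4*, *Phlda2*, *Nap1l4* and *Osbpl5*, 6 genes around the Kcnq1 imprinting centre on distal chromosome 7 of the mouse, held 145 of the 203645 measured promoter cytosines. They were chosen by gene symbol from a table of 9224 genes. Germline stem (GS) cells are spermatogonia that keep their stem cell activity in culture. In this study they were grown from CD9-expressing cells that had been magnetically sorted from mature testes of mice on the B6 background with a wild-type genotype. The 4 control-F1 lines (29, 37, 44 and 45) came from offspring of natural mating. The 4 ICSI-F1 lines (11, 17, 20 and 21) came from offspring produced by intracytoplasmic injection of fresh sperm (ICSI). The study calls this sperm wild-type and took it from testes of mice that carry an *Egfp* transgene. Each line gave 1 library. The labels give no age and do not say whether lines came from separate mice, but the study numbers its single F1 mice with the same numbers as the lines. Methylation was measured by reduced representation bisulfite sequencing (RRBS), which sequences DNA fragments cut by the enzyme MspI at CCGG, and the comparison asks whether birth after ICSI left a difference in the methylation of germline DNA.

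In an imprinted cluster, genes are expressed from the maternal or the paternal copy only. In the Kcnq1 domain the imprinting centre lies inside *Kcnq1* and is the promoter of the long noncoding RNA *Kcnq1ot1*, which the paternal copy transcribes and which silences neighbouring genes on that copy. Several of these neighbours are imprinted mainly in the placenta, where the silent copy is marked on its histones more than by methylation of the promoter. Male germ cells carry the paternal pattern of imprints. The imprinting centre itself, *Kcnq1* and *Cdkn1c* were not analysed here.

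All positions are in mm10, on chromosome 7. *Ascl2* (ENSMUSG00000009248, minus strand, chr7:142966829-142969264) had 45 cytosines between 1 and 595 bp upstream of its listed start. *Cd81* (ENSMUSG00000037706, plus strand, chr7:143052739-143067934) had 27 between 5 and 305 bp upstream, all of which lie in an intron of the predicted gene *R74862* in the GENCODE annotation. *Tssc4* (ENSMUSG00000045752, plus strand, chr7:143069249-143071093) had 10 between 99 and 168 bp upstream. *Phlda2* (ENSMUSG00000010760, minus strand, chr7:143502512-143503150) had 1, at 995 bp upstream in the shore of a CpG island. *Nap1l4* (ENSMUSG00000059119, minus strand, chr7:143513583-143549106) had 47 between 24 and 346 bp upstream. *Osbpl5* (ENSMUSG00000037606, minus strand, chr7:143709051-143756985) had 15 between 8 and 154 bp upstream, all outside CpG islands and their shores. Outside the *Cd81* promoter, the cytosines lay upstream of the genes and in no annotated transcript. Of the 145 cytosines, 22 lay in a CCGG and 123 lay inside fragments.

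The stretches that hold most CCGG cytosines of each promoter with a level over 20% in any line at its named cytosines are shown because the results turn on position within them. They are read from the GRCm38 reference on the plus strand, 5′ to 3′. Capitals mark measured cytosines, with a capital G for a cytosine on the minus strand.
Ascl2, chr7:142969301-142969500: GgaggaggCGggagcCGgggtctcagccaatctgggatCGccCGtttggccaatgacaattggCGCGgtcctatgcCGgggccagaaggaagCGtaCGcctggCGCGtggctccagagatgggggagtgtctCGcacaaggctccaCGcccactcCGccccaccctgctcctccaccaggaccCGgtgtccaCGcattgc
Cd81, chr7:143052419-143052691: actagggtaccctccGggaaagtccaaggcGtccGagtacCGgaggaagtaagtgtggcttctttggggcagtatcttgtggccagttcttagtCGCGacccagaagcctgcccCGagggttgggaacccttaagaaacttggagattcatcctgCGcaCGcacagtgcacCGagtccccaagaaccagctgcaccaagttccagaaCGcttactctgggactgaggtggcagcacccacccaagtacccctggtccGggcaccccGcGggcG
Tssc4, chr7:143069066-143069165: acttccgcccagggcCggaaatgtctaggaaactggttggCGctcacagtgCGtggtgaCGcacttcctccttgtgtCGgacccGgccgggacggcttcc
Phlda2, chr7:143504130-143504160: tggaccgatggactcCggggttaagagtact
Nap1l4, chr7:143549123-143549321: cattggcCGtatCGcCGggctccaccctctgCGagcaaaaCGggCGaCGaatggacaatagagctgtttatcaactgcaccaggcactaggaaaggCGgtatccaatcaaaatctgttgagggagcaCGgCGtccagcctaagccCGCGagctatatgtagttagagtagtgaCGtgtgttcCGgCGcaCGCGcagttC

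Away from the MspI cuts the promoters were weakly methylated, except that *Phlda2* had no cytosine measured there. The methylation level of a cytosine is the percentage of its reads that kept a C after bisulfite treatment. At the 123 cytosines inside fragments, the mean over the 8 lines had a median of 2.29%, and 120 of them were under 10%. The highest was 15.4%, at *Ascl2* position 142969782. At 94 of the 145 cytosines, at least 4 lines had a level of 0. At 2 cytosines all 8 lines were at 0, *Cd81* position 143052715 and *Osbpl5* position 143757010, where 375 and 449 unscaled reads allow a level of up to 0.8% and 0.668% (3 reads of the total, which covers counting error only).

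Mean levels above 20% were confined to CCGG among the 145 cytosines, although single lines exceeded 20% inside fragments as well. Over the 8 lines, 10 cytosines had a mean above 20% (6.9%, against 10.1% of all promoter cytosines), and all 10 lay in a CCGG. In the *Ascl2* promoter these were 5 cytosines with means of 22.3% to 30.8%. In the *Cd81* promoter they were 3, with means of 36.9%, 51.7% and 82.2%, and in the *Nap1l4* promoter they were 2, with means of 37.8% and 41.6%. The share of CCGG cytosines above 20% was close to that of the table, 45.5% of 22 against 49.4% of 34804 in all promoters. Of the 168841 cytosines inside fragments in all promoters, 2.0% were above 20%, and 0.0581% of those in CpG islands were. The CCGG cytosines made up 15.2% of the cytosines of the 6 promoters and 58.3% of their summed level. In the whole table they made up 17.1% of the cytosines and 59.7% of the summed level.

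The strands of a single CCGG could differ widely. MspI cuts after the first base of CCGG, and in library preparation the cut ends are filled in, so that the cytosine at the 3′ end of a fragment is put in by the polymerase. The following 4 sites, with the CCGG in capitals, are shown because both strands were measured and 1 of them was high.
Ascl2, chr7:142969475-142969494: accaggacCCGGtgtccacg
Cd81, chr7:143052450-143052469: tccgagtaCCGGaggaagta
Nap1l4, chr7:143549129-143549148: ccgtatcgCCGGgctccacc
Nap1l4, chr7:143549296-143549315: cgtgtgttCCGGcgcacgcg
In the *Ascl2* site the plus-strand cytosine (142969484) had a mean of 30.8% and the minus-strand cytosine (142969485) had 5.62%. In the *Cd81* site the plus strand (143052459) had 51.7% and the minus strand (143052460) had 11.4%. In line 37 this order was reversed, with 10.7% on the plus strand and 43.3% on the minus strand. In the *Nap1l4* sites the high strand changed sides. The plus strand was the high one at the site nearer to the gene (143549138, 37.8%, against 4.72% at 143549139), and the minus strand was the high one at the other (143549306, 41.6%, against 5.84% at 143549305). Over the 7 CCGG sites with both strands measured the gap between strands had a median of 25.2 percentage points, with a range of 0.392 to 40.2. Over 56 other CpGs the median was 1.47 and the largest was 6.92.

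High levels were found where the fragment ending at the cytosine, on its own strand, was no longer than the sequenced reads. Of the 22 CCGG cytosines, 11 were at the end of a fragment of at most 150 bp, and 10 of these were above 20%. The exception was *Tssc4* position 143069150, at the end of a 4 bp fragment, with 2.55%. At the other 11 a longer fragment ended, and their means were 3.45% to 14.8%. For the high strands of the *Nap1l4* sites the fragments were 54 and 146 bp long, and for the low strands they were both 167 bp long.

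The promoters of the CpG islands in the whole table showed the same order. There, CCGG cytosines had a median of 23.6% (17170 cytosines) where a fragment of at most 150 bp ended and 4.46% (4729) where a longer one ended, and cytosines inside fragments had 1.82% (134243). The shortest fragments were mostly low: where a fragment of at most 40 bp ended, the median was 7.4% (7313 cytosines, quartiles 3.76% and 25.3%). Where fragments of 40 to 150 bp ended and a fragment of over 150 bp began, the median was 58.3%. The 4 such cytosines of the 6 promoters had means of 30.8% to 41.6%. These length classes were chosen after the values were seen. The part of the filled-in bases in these levels was not tested.

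**Figure D1:**
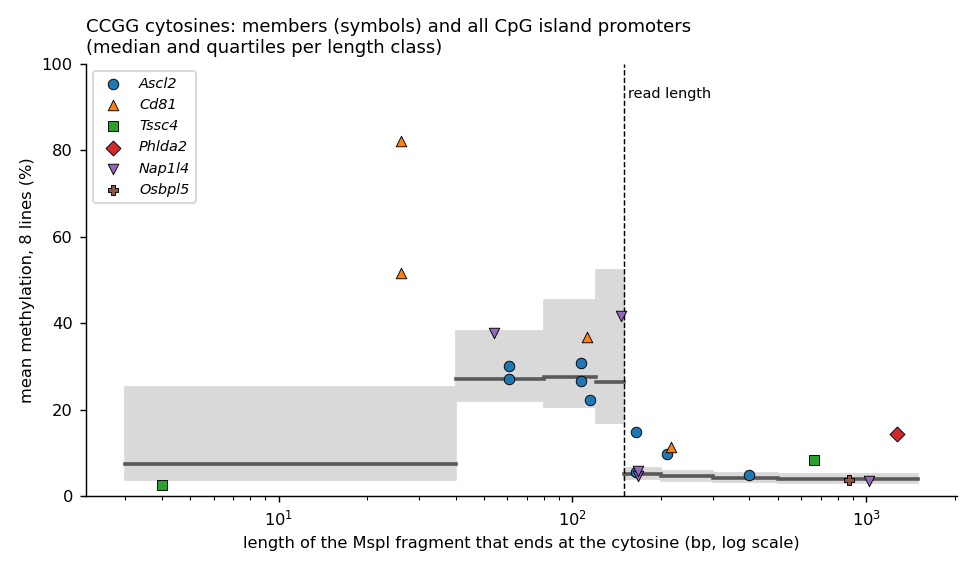
Mean methylation level over the 8 lines (%) of CCGG cytosines against the length of the MspI fragment that ends at the cytosine (bp, log axis). Symbols are the 22 cytosines of the 6 promoters, grey lines and bands are the median and quartiles of CCGG cytosines in all CpG island promoters, and the dashed line is the read length. The medians were 7.4% up to 40 bp, 27.0%, 27.5% and 26.3% in the classes from 40 to 150 bp and 5.01% from 150 to 200 bp.

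The promoter mean is the unweighted mean over a promoter's cytosines. The groups overlapped at all 6 genes, and no difference was larger than the spread between lines. It was lower in ICSI-F1 GS cells at 4 genes and higher at 2, and 55.4% of all promoters were lower. None of the 6 passed an adjusted p of 0.05, and 0.0% of the 9224 promoters tested did (exact two-sided permutation test over 70 arrangements, Benjamini-Hochberg adjusted, adjusted p = 1 for all 6). An adjusted call was out of reach in this design: the smallest p that 4 lines against 4 allow is 0.0286, and 5271 promoters would have had to share it, whereas 135 (1.46%) did. The unadjusted p of the 6 genes were 0.314 to 1. In limma, 232 promoters (2.52%) had an unadjusted p under 0.05, none of them among the 6, and 0 had an adjusted one.

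*Ascl2* encodes a basic helix-loop-helix transcription factor that trophoblast needs in the placenta. Its promoter mean was 4.59%, 4.83%, 8.12% and 7.95% in control-F1 lines 29, 37, 44 and 45, and 4.26%, 5.48%, 8.33% and 8.76% in ICSI-F1 lines 11, 17, 20 and 21. The groups overlapped almost fully, at 6.37% ± 1.92 and 6.71% ± 2.19 (SD, n = 4). The difference was 0.338 percentage points (exact permutation p = 0.657, 95% interval from limma −2.96 to 3.64). It turned negative without line 29, 37, 20 or 21 and reached −0.346 without line 21.

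Within the *Ascl2* promoter the level inside fragments was higher far from the gene. At the 33 cytosines between 1 and 230 bp upstream, the control-F1 lines had 2.16% ± 1.24 and the ICSI-F1 lines had 2.65% ± 1.91 (SD, n = 4). At the 3 cytosines between 518 and 553 bp upstream it was 14.4% ± 8.17 and 14.2% ± 11.9. These 3 cytosines lay in a single fragment of 210 bp and had 11 to 116 scaled reads per line. In ICSI-F1 line 20 the step was small, from 5.21% near the gene to 6.07%. At position 142969782, the interior cytosine with the widest range, the control-F1 lines 29, 37, 44 and 45 had 2.44%, 11.7%, 36.8% and 25.8%, and the ICSI-F1 lines 11, 17, 20 and 21 had 0%, 7.81%, 7.14% and 31.8%. Both groups thus held lines near 0 and lines above 30%. At the CCGG cytosine 142969484, with the highest mean and the largest difference, the control-F1 lines had 24.3%, 15.5%, 34.1% and 30.0% and the ICSI-F1 lines had 29.6%, 35.4%, 27.8% and 50%. Line 21 was the highest and line 37 the lowest, and the other 6 lines lay between 24.3% and 35.4%.

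*Cd81* encodes a tetraspanin, a membrane protein of the same family as CD9. The promoter mean was 7.41%, 4.82%, 11.6% and 15.6% in control-F1 lines 29, 37, 44 and 45 and 7.38%, 7.3%, 7.43% and 9.39% in ICSI-F1 lines 11, 17, 20 and 21. The control-F1 lines lay on both sides of the narrower ICSI-F1 range, with group means of 9.86% ± 4.75 and 7.88% ± 1.01 (SD, n = 4). The difference was −1.99 percentage points (exact permutation p = 0.543, 95% interval −7.1 to 3.13), and −0.0619 without line 45. Inside fragments, the levels were 3.73% ± 3.62 and 1.24% ± 0.247, a difference of −2.49 percentage points (exact permutation p = 0.429), and control-F1 lines 44 and 45, at 5.5% and 7.98%, were the only ones over 1.54%.

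The high CCGG cytosines of *Cd81* were also the ones with the largest spread. At position 143052434 the control-F1 lines had 97.1%, 44.1%, 100% and 94.7% and the ICSI-F1 lines had 70.6%, 87.5%, 78.3% and 85.0%, on 20 to 38 scaled reads. Line 37 alone was under 70%, with 8 of 18 unscaled reads methylated (95% Wilson interval 24.6% to 66.3%, counting error only). At position 143052459, which had the largest group difference of the 145 cytosines, the control-F1 lines had 49.2%, 10.7%, 48.7% and 70% and the ICSI-F1 lines had 51.5%, 41.8%, 73.1% and 68.6%. The group means were 44.6% ± 24.7 and 58.7% ± 14.6 (SD, n = 4), and the difference of 14.1 percentage points was 2.78 without line 37 and was 22.6 without line 45. Both cytosines lie at the ends of a 26 bp fragment, of which line 37 had the lowest level at either side. On the opposite strand of the CCGG of 143052459, at position 143052460, line 37 was instead the highest. It had 43.3% there, and the other lines had 0% to 21.1%.

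*Tssc4* encodes a protein that takes part in the assembly of splicing particles. Its promoter mean was 0%, 1.54%, 23.0% and 7.68% in control-F1 lines 29, 37, 44 and 45 and 0%, 2.96%, 1.44% and 2.94% in ICSI-F1 lines 11, 17, 20 and 21. Line 44 stood far above the other 7, of which only line 45 exceeded 2.96%. The group means were 8.06% ± 10.5 and 1.83% ± 1.41 (SD, n = 4), and the difference of −6.23 percentage points (exact permutation p = 0.343, 95% interval −17.0 to 4.54) was −1.24 without line 44.

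The level of line 44 came from the plus strand of a 68 bp fragment. Its 4 interior cytosines had 37.9% to 44.8% in line 44, on 25 to 26 unscaled reads of which 10 to 12 were methylated, and 0% to 15.4% in the other 7 lines. At position 143069125, 12 of 26 reads gave a Wilson interval of 28.8% to 64.5%. The levels there were 0%, 15.4%, 44.8% and 2.22% in control-F1 lines and 0%, 4.92%, 0% and 2.41% in ICSI-F1 lines. On the minus strand of the same fragment line 44 had a mean of 7.14% and line 45 had 11.6%. Cytosines of a fragment are read in the same molecules and are not independent.

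Similar runs occurred in 2 other promoters. The rule was that the mean over at least 3 interior cytosines of a fragment strand was over 10 percentage points higher in 1 line than in the next. In the *Ascl2* promoter, 5 minus-strand cytosines between 1 and 46 bp upstream had 16.8% to 19.8% in ICSI-F1 line 20, with 78 to 83 unscaled reads, and 0% to 6.45% in the other lines. In the *Cd81* promoter, 7 plus-strand cytosines between 113 and 226 bp upstream had 18.2% to 28.6% in control-F1 line 45, on 11 to 22 unscaled reads, and 0% to 21.7% in the others. Line 45 was not the highest at each of these, since line 44 had 21.7% at position 143052513 and line 20 had 18.8% at position 143052515. Each run was in a different line, and the line belonged to the control-F1 group in 2 of the 3. This rule was set after the values were seen.

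**Figure D2:**
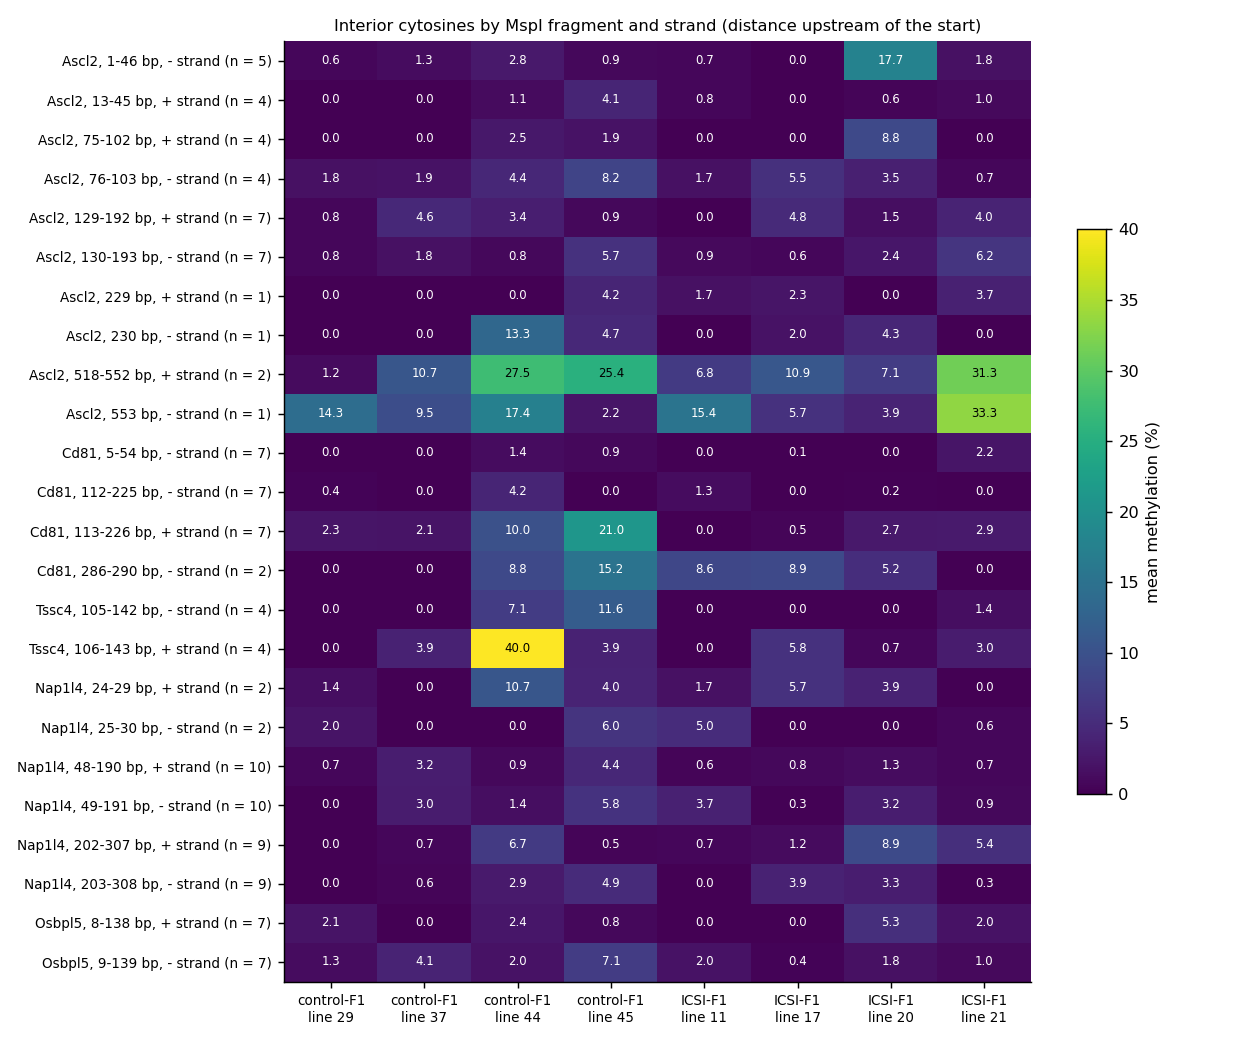
Mean methylation level (%, colour and printed value) of the cytosines inside each MspI fragment, by strand (rows, with distance upstream of the start and number of cytosines) and GS cell line (columns) for 5 promoters. Line 44 stands apart in the plus strand of the *Tssc4* fragment at 40%, line 45 in the *Cd81* fragment at 21% and line 20 next to the *Ascl2* start at 17.7%.

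*Phlda2* encodes a small pleckstrin homology domain protein that limits growth of the placenta. Its single measured cytosine, position 143504145, had 11.1%, 0%, 20.2% and 26% in control-F1 lines 29, 37, 44 and 45 and 6.25%, 9.76%, 24.2% and 17.6% in ICSI-F1 lines 11, 17, 20 and 21. Each group held values under 10% and values over 17%, and the means were 14.3% ± 11.3 and 14.5% ± 8.05 (SD, n = 4). The difference was 0.142 percentage points (exact permutation p = 1, 95% interval −13.9 to 14.2). It was −4.63 without line 37 and 4.02 at the other end of the range over left-out lines. The 0 of line 37 rests on 19 unscaled reads and allows up to 15.8%, and no other cytosine of this promoter was analysed here.

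*Nap1l4* encodes a histone chaperone of the nucleosome assembly protein family. The promoter mean was 2.15%, 3.0%, 4.77% and 6.48% in control-F1 lines 29, 37, 44 and 45 and 2.58%, 3.62%, 5.28% and 4.0% in ICSI-F1 lines 11, 17, 20 and 21. The ICSI-F1 lines fell inside the range of the control-F1 lines, with means of 4.1% ± 1.93 and 3.87% ± 1.11 (SD, n = 4). The difference was −0.23 percentage points (exact permutation p = 0.857, 95% interval −2.94 to 2.48), 0.564 without line 45 and 0.2 without line 11. At the CCGG cytosine 143549138 the control-F1 lines had 47.4%, 28.3%, 34.8% and 55.1% and the ICSI-F1 lines had 21.3%, 32.9%, 34.3% and 48.2%. At 143549306 they had 40%, 29%, 45.2% and 50.7%, and 29.3%, 54.6%, 39.1% and 45%. No line was under 20% at either cytosine, and the groups overlapped at both.

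*Osbpl5* encodes a lipid transfer protein of the oxysterol-binding protein family. Its promoter mean over the 8 lines, 2.14%, was the lowest of the 6 genes. *Tssc4* was lower in lines 29, 37, 11 and 20, and *Phlda2* in line 37. The *Osbpl5* promoter mean was 1.98%, 1.9%, 2.25% and 4.7% in control-F1 lines 29, 37, 44 and 45 and 0.931%, 0.194%, 3.63% and 1.58% in ICSI-F1 lines 11, 17, 20 and 21. All 8 lines were under 5%, and the groups overlapped at 2.7% ± 1.34 and 1.58% ± 1.48 (SD, n = 4). The difference was −1.12 percentage points (exact permutation p = 0.314, 95% interval −3.64 to 1.4), and −0.455 at the smallest when a line was left out. Its CCGG cytosine 143757139 lay at the end of an 875 bp fragment and had 5.66%, 0%, 2.78% and 15.0% in the control-F1 lines and 0%, 0%, 4.65% and 2.17% in the ICSI-F1 lines.

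**Figure D3:**
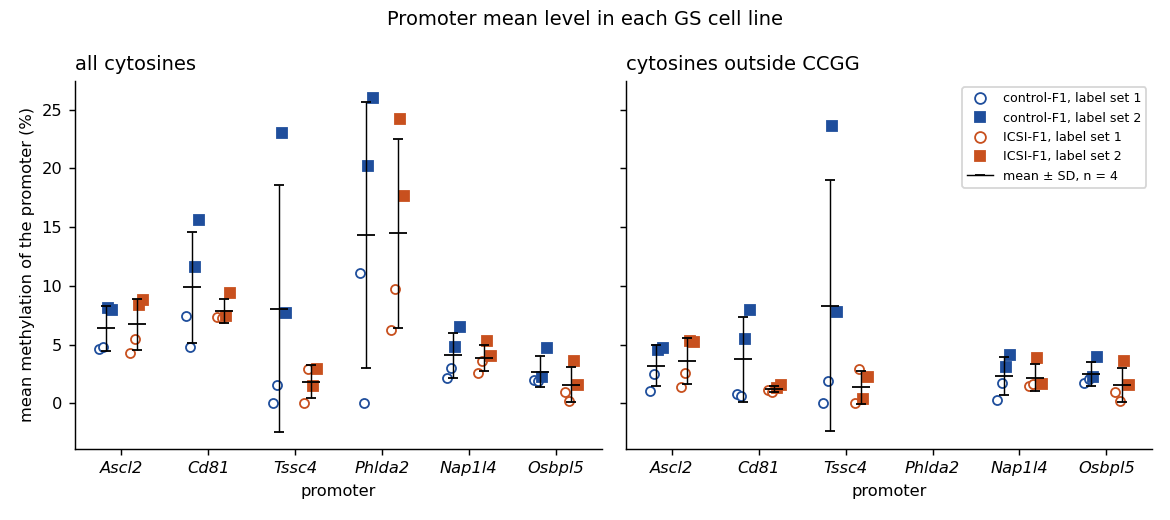
Promoter mean methylation level (%) of the 6 genes in each GS cell line over all cytosines (left) and over those outside CCGG (right, where *Phlda2* had none). Open circles are lines 29, 37, 11 and 17, filled squares are lines 44, 45, 20 and 21, and black bars are the mean ± SD of 4 lines. Filled squares lie above open circles at *Ascl2*, *Cd81*, *Phlda2* and *Nap1l4* in the left panel, and line 44 stands alone at *Tssc4*.

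Single cytosines gave no call either. The study called a cytosine at a difference of over 20 percentage points and left out those reversed in any sample. A reversal was read here as an ICSI-F1 line beyond the mean of the controls, which is not spelled out in the methods. By this reading, 0 of the 145 cytosines were called, and 0.324% of the table was. The study reported a smaller share over its own, larger set of covered sites, so this reading does not reproduce its calls. Inside fragments 0 of 123 were called, and 0.197% of such cytosines in the table. The count was also 0 with reversed cytosines kept and with groups that must not overlap, for which no share of the table is given here. With 0.324% of the table called, a count of 0 among 145 cytosines does not set these promoters apart. Without line 45 the rule took 1, *Cd81* position 143052459, and 0.561% of the table. In the moderated quasi-binomial test of reads at each site, 0 of 143 cytosines tested passed a false discovery rate of 0.05, as did 0.0% of the table, and the lowest adjusted p in the 6 promoters was 0.702. At an unadjusted p under 0.05 there were 6 (3 higher and 3 lower in ICSI-F1), against 7.06% of the 196818 cytosines tested in the table. limma on the log2 ratio of methylated to unmethylated reads gave 1 at that level, against 3.6% of the table.

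These 6 cytosines were named after their values were seen. They were *Ascl2* positions 142969310 and 142969456, *Cd81* position 143052459, *Tssc4* position 143069107, and *Nap1l4* positions 143549163 and 143549219. Their differences ran from −8.04 percentage points at *Tssc4* to 14.1 at *Cd81*, and 5 of them were inside fragments at mean levels of 1.13% to 4.02%. The groups did not overlap at 2 cytosines, and the table had 1.11% of such cytosines. At *Cd81* position 143052626 the ICSI-F1 lines were all at 0 and the control-F1 lines had 9.68%, 1.8%, 8.7% and 18.2%, on as few as 10 scaled reads. At *Nap1l4* position 143549219 the control-F1 lines had 4.05%, 3.51%, 8.54% and 3.77% and the ICSI-F1 lines had 0%, 0%, 2.56% and 0%. Over all 145 cytosines, 64 were higher and 79 lower in ICSI-F1 lines and 2 were equal, and 53.2% of the table was lower. The difference was within 5 percentage points at 84.1% of them and at 89.9% of the table.

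The lines could also be divided by how the labels describe them. Lines 29, 37, 11 and 17 are described in other label fields than lines 44, 45, 20 and 21, and both groups have 2 lines in each set. Whether the sets were sequenced apart is not stated. At *Ascl2*, *Cd81*, *Phlda2* and *Nap1l4* every line of the second set was above every line of the first, whereas the groups overlapped at all 6 genes. At *Cd81* the sets nearly touched, at 7.43% in line 20 of the second and 7.41% in line 29 of the first. The same order of the sets held for 27.7% of all promoters. The set means were 4.79% and 8.29% at *Ascl2*, 6.73% and 11% at *Cd81*, 6.78% and 22.0% at *Phlda2*, and 2.84% and 5.14% at *Nap1l4*. With cytosines outside CCGG only it held for *Ascl2* and *Cd81*, and for 23.7% of promoters. Within the first set the difference between the groups was 0.161 percentage points at *Ascl2*, 1.22 at *Cd81*, 0.71 at *Tssc4*, 2.45 at *Phlda2*, 0.527 at *Nap1l4* and −1.37 at *Osbpl5*. Within the second it was 0.515, −5.2, −13.2, −2.16, −0.987 and −0.866, in the same order, so that the sign was the same in both sets only at *Ascl2* and *Osbpl5*.

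Over the whole table the mean level was 6.14% to 6.88% in the first set and 8.24% to 9.26% in the second. Depth moved with the sets. Unscaled reads summed over the promoter cytosines were 9122679 to 12678570 per line in the first and 14264477 to 16781748 in the second, and the median per cytosine of the 6 promoters was 49 to 65 and 64 to 74. Its part in the levels was not tested. Of 17 listed germ cell genes, 8 had promoter cytosines, and all 8 had means under 20% (2.45% to 9.09%), as did 84.3% of all promoters, so that these values check the cell type only weakly. Inside fragments that list had 3.93% ± 0.888 in the control-F1 lines and 2.91% ± 1.66 in the ICSI-F1 lines (SD, n = 4). Of 10 listed fibroblast genes, 3 had cytosines, with means of 3.04% at *Twist1*, 19.9% at *Col1a1* and 76.2% at *Col1a2*. Inside fragments that list had 25.7% ± 3.76 in the control-F1 lines and 31.8% ± 3.17 in the ICSI-F1 lines. At *Col1a2*, with 2 cytosines, the promoter means were 66.4% ± 11.9 and 86% ± 11.8 (SD, n = 4), a difference of 19.6 percentage points (exact permutation p = 0.0857, adjusted p = 1). The part of other cells in the levels of the 6 promoters was not tested.

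Promoters along the same chromosome showed that high levels inside fragments were measurable in these libraries. Of 24 listed neighbours, 8 had cytosines, none passed the promoter test, and their means ran from 6.83% to 98.1%. The promoters of *Syt8*, *Tnni2* and *Th*, on the far side of *Ascl2* from the other members, had 97.4%, 97.4% and 98.1%, with 2 of 4, 6 of 15 and the only cytosine in a CCGG. Inside fragments *Syt8* had 95.5% and *Tnni2* had 97.5%. *Dusp8* and *Ctsd*, on the same side, were low, with means of 6.83% and 10.8%, and 2.3% and 0.208% inside fragments. *Cars*, between *Nap1l4* and *Osbpl5*, had 1.53% inside fragments. *H19*, a maternally expressed noncoding RNA whose paternal copy is methylated, had promoter means of 40.3% ± 3.28 and 40% ± 2.64 in the control-F1 and the ICSI-F1 lines (SD, n = 4), and 28.5% to 38.2% inside fragments. Every line at *H19* thus lay above the highest line of the 5 promoters of the cluster inside fragments, 23.6% in line 44 at *Tssc4*. Of 33 imprinted genes listed for comparison, *H19* included, 12 had cytosines, and their promoter means had a median of 6.04%, with 5.74% for the 6 genes and 5.64% for all 9224.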

How the data were processed

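RRBS libraries of 8 GS cell lines were made by the authors with the Zymo-Seq kit and sequenced as paired reads. Per the study's methods, reads were trimmed with TrimGalore 0.5.0 (options for RRBS and non-directional libraries) and aligned to mm10 with Bismark 0.20.0. methylKit (1.16.0 in the submitters' processing notes) removed cytosines under 10 reads, scaled coverage between lines and joined lines with strands kept apart. Promoters were 1 kb upstream of Ensembl 87 starts. The deposited values are therefore scores on a read scale, numbers of methylated and unmethylated reads that the authors scaled and rounded, not counts. The scaling was undone from the values themselves: 100% of coverages were whole multiples, after rounding, of factors of 1.0 to 1.88. Scaled coverage was 10 to 225 reads at the 145 cytosines. Wilson intervals and the limits for levels of 0 cover counting error only, and the study's methods mention no molecular identifiers. The limma intervals of the promoter differences rest on the spread between lines.

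From these numbers, levels, promoter means and differences were computed with Python 3.11.15, numpy 2.4.6 and scipy 1.17.1. Promoter means of all genes were compared by exact permutation of lines. Sites were compared by a quasi-binomial model with dispersions moderated by limma 3.58.1 (R 4.3.3), which had been planned for counts and was kept for the scaled numbers. P-values were adjusted over the whole table, and tests were checked on simulated data. MspI fragments were found by searching CCGG, which reads the same on both strands, in GRCm38, which has a CpG at 99.9995% of the table's positions. Sequences and annotation (GENCODE, release 21 for mouse) came from that build.

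The members and lists were chosen with earlier results of these data known. The text names the 6 genes and, of each, the cytosine with the highest mean, the largest difference and the widest range. Of neighbours with cytosines it names those a result turns on. Alternatives were other coverage minimums, merged strands, medians, thresholds, label sets and left-out lines. Those on CCGG cytosines and fragment means were added after the data had been seen.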

Additional observations from a re-analysis of the deposited data

Results flagged for a closer look

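Of 40 groups of 4 lines tested, 4 held a line far from the other 3 (Dixon's test). Chance alone gives about 1 in 20 groups where groups are independent and not picked by their values. These groups shared cytosines, and some were cytosines named for a wide range or a large difference, so that rate is only a rough guide. The *Cd81* promoter mean of ICSI-F1 line 21 was 9.39%, with the other ICSI-F1 lines at 7.3% to 7.43%. The *Osbpl5* promoter mean of control-F1 line 45 was 4.7%, with the others at 1.9% to 2.25%. Outside CCGG, the *Nap1l4* promoter mean of ICSI-F1 line 20 was 3.88%, with the others at 1.5% to 1.63%. At *Cd81* position 143052434, control-F1 line 37 had 44.1%, with the others at 94.7% to 100%.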

How the results depend on the processing

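No paired analysis was possible because the groups share no line numbers. No promoter difference had an unadjusted p under 0.05 where a test was run. The median over lines and the single label sets gave values without a test, and permutation within label sets cannot go below 0.0556. Apart from left-out lines, 51 of 57 recomputed promoter differences kept their direction. The others were *Cd81* at 0.579 percentage points with at least 30 scaled reads in all lines, *Phlda2* at −1.97 for the median over lines, *Cd81* at 1.22, *Tssc4* at 0.71 and *Nap1l4* at 0.527 with the first label set alone, and *Phlda2* at −2.16 with the second alone. Leaving out a line gave −0.346 to 1.15 for *Ascl2*, −3.67 to −0.0619 for *Cd81*, −8.92 to −1.24 for *Tssc4*, −4.63 to 4.02 for *Phlda2*, −0.881 to 0.564 for *Nap1l4* and −1.8 to −0.455 for *Osbpl5*. *Ascl2* reversed to −0.255, −0.176, −0.203 and −0.346 without lines 29, 37, 20 and 21, *Phlda2* to −0.925, −4.63, −3.11 and −0.907 without the same lines, and *Nap1l4* to 0.564 and 0.2 without lines 45 and 11. The 20% rule took 1 cytosine at a threshold of 10 percentage points (*Tssc4* 143069125, with 1.36% of the table), 2 with the second label set alone (*Tssc4* 143069081 and 143069125, with 0.684%) and 0 to 1 with a line left out (0.293% to 0.603%). The site test called 0 of the members' cytosines in every setting, left-out lines included (0 to 0). In the table it called 70 of 192970 cytosines without line 44 and at most 16 in any other setting. So few calls do not set the 6 promoters apart. At an unadjusted p under 0.05 it gave 6 as planned (7.06% of the table), 10 with a dispersion per site (7.75%), 18 with the label set as a covariate (15.4%), 12 with the scaling undone (8.59%), 1 in limma (3.6%), and 4 to 13 with a line left out (12, 13 and 11 without lines 29, 37 and 44, with 8.61%, 7.45% and 7.29%). With strands merged, the CpG of *Ascl2* 142969484 differed by −0.00636 in place of 9.73. Merging joined it with the minus-strand cytosine 142969485, which differed by −6.05 on 65 to 128 scaled reads, against 44 to 84. The cause of the other changes was not tested. Depth limits single cytosines, of which some had as few as 10 scaled reads in a line.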
